A study of Papio hamadryas with 14 samples.

Results

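The HOX genes of the baboon kidney were followed here from early fetal life to adulthood. They were taken as every gene whose single symbol in the platform annotation is HOXA, HOXB, HOXC or HOXD followed by a number. This gave 15 genes with 20 probe sets, of 9580 genes with 1 symbol and 16143 probe sets other than controls. The HOXA cluster contributed 1 gene, HOXB 5 genes, HOXC 4 genes and HOXD 5 genes. A further 3 probe sets carry a HOXD name together with another symbol and were left out. HOX genes outside these 15, the other HOX11 paralogues among them, were not analysed here.

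The samples were whole kidneys of Papio hamadryas with no stated treatment or genetic change. Fetal kidneys came from 60 days of gestation (60dG, 2 arrays) and from 90, 125 and 160 days (90dG, 125dG and 160dG, 3 arrays each), and 3 adult kidneys came from animals of 6, 12 and 7 years (adult replicates 1, 2 and 3). Total RNA was hybridised to human Affymetrix arrays, 1 type for all fetal samples and another for all adult samples, and the values are deposited linear signals. Whole kidney holds every renal cell type, so fewer cells of a type and less RNA per cell cannot be told apart.

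HOX genes encode homeodomain transcription factors that lie in 4 clusters and are numbered in paralogue groups by their order along each cluster. Low-numbered members are known for anterior body levels such as the hindbrain, and high-numbered members for posterior levels, which include the kidney and the hindlimb. In the kidney the HOX11 paralogues act with EYA1 and PAX2 to switch on the branching signal GDNF in nephron progenitors. The HOX10 paralogues are known for a role in the renal stroma, and the promoter of HOXB7 is widely used to drive transgenes in the ureteric bud.

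Array medians ran from 172.9 to 194.6 in fetal samples and from 210.2 to 214.4 in adult samples. Of the 9 kidney epithelium marker genes on the arrays, 8 were tested and 4 rose from 60dG to 160dG, where limma called 9.83% of all tested probe sets, and the markers' summed signal was between 5148 and 12583 on every array. Replicate 2 of 60dG stood apart. It had the highest signal of all arrays for 6 of 7 marker genes of adrenal gland and gonad. The 7 summed to 8188 there, against 313 to 928 elsewhere. Adult replicate 3 had the highest signal for 4 of 7 skeletal muscle genes, with a sum of 15334 against 209 to 672 elsewhere. The ratio of 3' to 5' signal of the GAPDH control, a sign of RNA quality, was 1.78, 2.46 and 3.43 at 90dG and 1.62 to 1.99 on the other fetal arrays. Some fits without single arrays, and some with the GAPDH ratio as a covariate, are given below. The 160dG against 60dG estimates that changed sign among the alternatives are listed in the closing section.

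Most central and posterior HOX genes had a mean fetal signal above the median probe set, and no HOX probe set above the filter passed the test for a change between fetal stages. Of the 20 probe sets, 16 probe sets of 12 genes had a mean fetal level above the filter, a signal of 177 that splits all probe sets at their median. The other 4 probe sets, of HOXA2, HOXB3, HOXC8 and 1 of the 2 of HOXD9, lay below it. On the log2(signal + 16) scale, which understates the change of dim genes, limma with Benjamini-Hochberg adjustment at 0.05 called 0 of the 16 probe sets in each of 6 comparisons. Across all 8071 probe sets tested, 17.7% were called for any difference between stages, 8.61% for a linear trend with gestation and 9.83% for 160dG against 60dG. For the single steps, 8.86% were called for 90dG against 60dG, 6.76% for 125dG against 90dG and 0.223% for 160dG against 125dG. At an unadjusted p under 0.05 the HOX counts of 16 were 2 for any stage difference (34.0% of all probe sets tested), 3 for the trend (23.7%) and 1 for 160dG against 60dG (23.7%). They were 1 for 90dG against 60dG (26.1%), 2 for 125dG against 90dG (25.5%) and 2 for 160dG against 125dG (7.79%). At 2 to 3 arrays a group the 95% intervals were wide. For 160dG against 60dG they lay within a 2-fold change either way for 14 of 16 probe sets, the others being HOXD11 and HOXD9 probe set 205604_at. They lay within 2-fold for 14 probe sets in the first step, 16 in the second and 15 in the last.

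**Figure D1:**
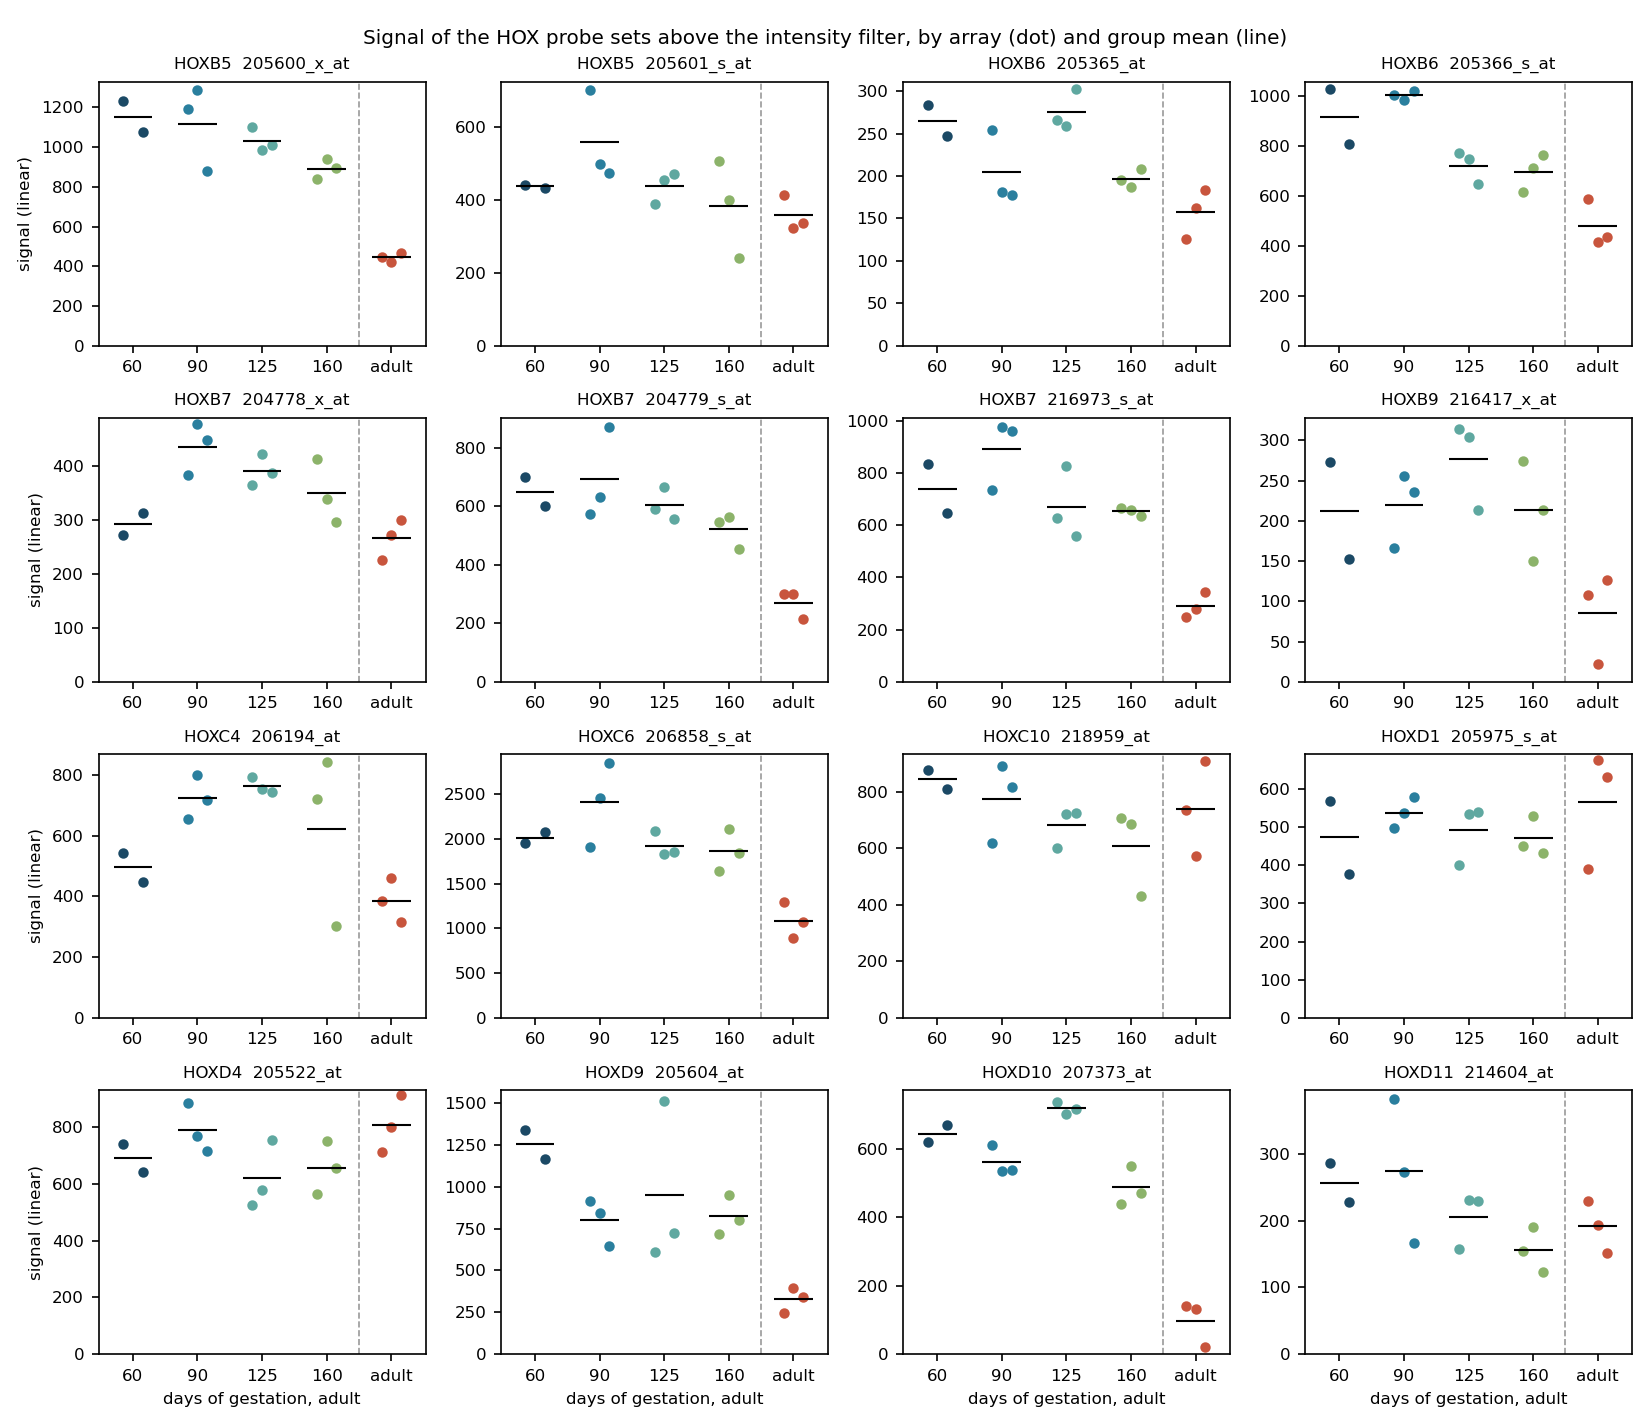
Deposited linear signal (vertical axis, starting at 0) of the 16 HOX probe sets above the intensity filter, by fetal stage in days of gestation and in adult (horizontal axis). Each dot is 1 array, each short line a group mean, and the dashed line parts the 2 array types. HOXD10 ran from 438 to 737 in fetal kidney and from 22.1 to 140.3 in adult kidney.

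HOX estimates leaned downward late in gestation. From 60dG to 160dG the median HOX difference was -0.28 on the log2 scale against -0.02 over all probe sets tested, and 12 of 16 estimates (75%) were negative against 51.7% of all. For the trend the median was -0.029 per 10 days against 0.001, with 13 of 16 (81.25%) negative against 49.1%. For 160dG against 60dG, leaving out 60dG replicate 2, the array with adrenal and gonad genes, gave 14 of 16 negative (median -0.36). Leaving out 60dG replicate 1 gave 10 of 16 (median -0.21). For the trend these fits gave 16 of 16 (median -0.032 per 10 days) and 14 of 16 (median -0.030). Some genes have several probe sets. With 1 probe set per gene, 9 of 12 were negative for 160dG against 60dG (median -0.27) and 10 of 12 for the trend (median -0.029).

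The successive steps differed in direction. From 60dG to 90dG the median HOX difference was 0.11 with 5 of 16 negative. This turned to -0.06 with 10 of 16 negative when 60dG replicate 2 was left out, became 0.24 without 60dG replicate 1, and was 0.05 with 7 of 16 negative with the GAPDH ratio as a covariate. From 90dG to 125dG the median was -0.16 with 11 of 16 negative. With the GAPDH ratio as a covariate it was -0.07, again with 11 of 16 negative, and without 90dG replicate 2 it was -0.11. From 125dG to 160dG the median was -0.20 with 15 of 16 negative, against a median of -0.01 and 51.4% negative over all probe sets. Without 160dG replicate 3 this last median was -0.07 with 10 of 16 negative, and with 1 probe set per gene it was -0.14 with 11 of 12 negative. For 160dG against 60dG, leaving out 160dG replicate 3 moved the median to -0.18.

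All 160dG arrays lay below both 60dG arrays for 8 of 16 HOX probe sets, where 22.4% of all tested probe sets did so. None of the 16 had every 160dG array above both 60dG arrays, where 20.1% of all did. The 8 were HOXB5 probe set 205600_x_at, both HOXB6 probe sets, HOXB7 probe set 204779_s_at, HOXC10, HOXD9 probe set 205604_at, HOXD10 and HOXD11. By paralogue number the median 160dG minus 60dG difference was -0.49 over the 5 tested posterior probe sets (paralogues 9 to 11), -0.20 over the 10 central ones (4 to 7) and 0.02 for the single anterior one, HOXD1. By cluster it was -0.28 for HOXB (8 probe sets), -0.12 for HOXC (3) and -0.40 for HOXD (5). These differences between groups of members were not tested.

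**Figure D2:**
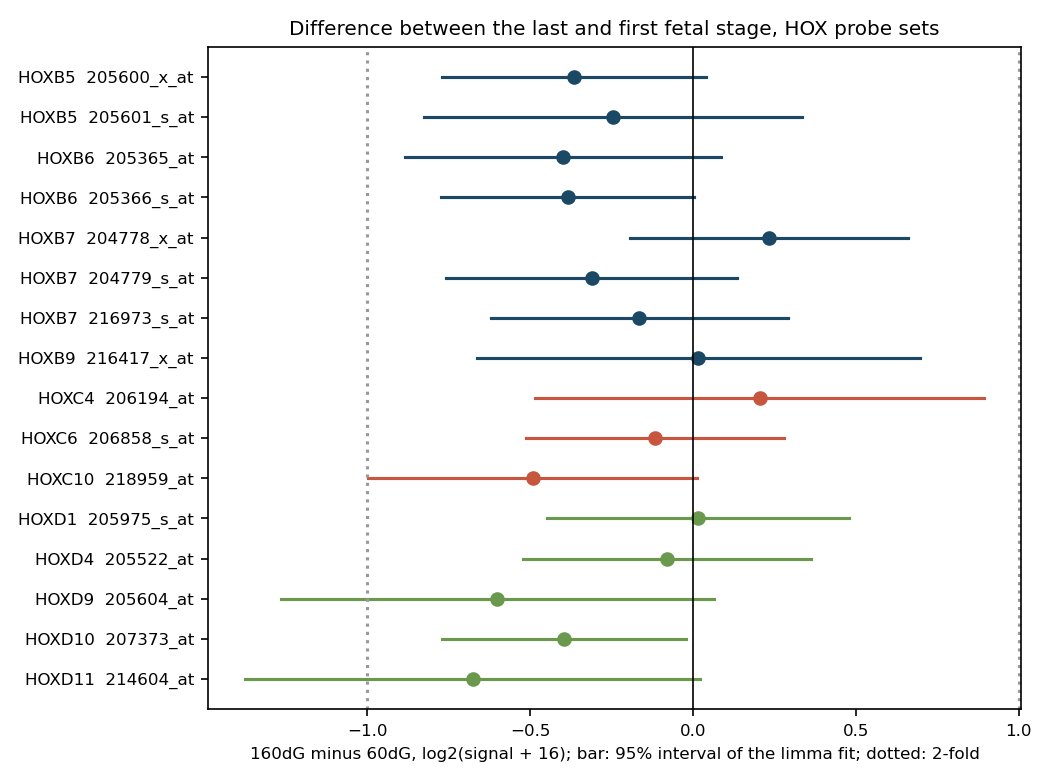
Difference between 160dG and 60dG on the log2(signal + 16) scale (horizontal axis) for the 16 tested HOX probe sets, with limma's 95% interval as a bar and a 2-fold change as dotted lines. Colours mark the HOXB, HOXC and HOXD clusters. Point estimates run from -0.68 for HOXD11 to 0.23 for HOXB7 probe set 204778_x_at, and the interval of HOXD10 alone ends below 0, before adjustment.

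Among the posterior genes, HOXD11 is the measured member of the paralogue group required for kidney induction. Its signal was 287 and 228 at 60dG, 383, 274 and 167 at 90dG, 157, 232 and 229.5 at 125dG, and 154, 191 and 123 at 160dG. The 160dG arrays were all below the 60dG arrays and overlapped the 125dG arrays. The difference from 60dG to 160dG was -0.68 ± 0.32 (SE; limma adjusted p = 0.225), the lowest estimate of any HOX probe set, and its 95% interval ran from -1.37 to 0.02. The slope was -0.076 per 10 days (adjusted p = 0.126).

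HOXD10, of the paralogue group with a known role in renal stroma and hindlimb motor neurons, had close replicates. It read 619 and 669 at 60dG, 610.2, 536 and 538 at 90dG, 737, 702 and 718 at 125dG, and 438, 552 and 473 at 160dG. The 3 arrays of 125dG were above every other fetal array. From 125dG to 160dG the difference was -0.55 ± 0.16 (SE; unadjusted p = 0.00334, limma adjusted p = 0.243), in a comparison that called 18 of 8071 probe sets. With array weights HOXD10 passed the test for any stage difference (adjusted p = 0.0460), a fit that called 27.2% of all probe sets.

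HOXC10, a paralogue of HOXD10 expressed in lumbar spinal cord and hindlimb, read 876 and 810.4 at 60dG, 617, 891 and 816 at 90dG, 601, 722 and 723 at 125dG, and 707, 687 and 431 at 160dG. Its 160dG arrays were below its 60dG arrays and overlapped the 125dG arrays. The difference from 60dG to 160dG was -0.49 ± 0.23 (SE; limma adjusted p = 0.223), and -0.27 without 160dG replicate 3.

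HOXD9 and HOXB9 belong to the paralogue group expressed at thoracic and lumbar levels. HOXD9 probe set 205604_at read 1341 and 1163 at 60dG, 917, 843 and 644 at 90dG, 609, 1514 and 721 at 125dG, and 720.0, 952 and 798 at 160dG. Both 60dG arrays were above all others but 1, 125dG replicate 2. The difference from 60dG to 90dG was -0.65 ± 0.31 (SE; limma adjusted p = 0.205) and that from 60dG to 160dG was -0.60 ± 0.31 (adjusted p = 0.262). The other HOXD9 probe set, 205605_at, lay below the filter, with fetal signals from 8.8 to 129, and was not tested. HOXB9 read 273 and 153 at 60dG, 166, 256 and 236 at 90dG, 314, 304 and 213 at 125dG, and 275, 150.1 and 214 at 160dG, so that its stages overlapped. Its difference from 60dG to 160dG was 0.02 ± 0.32 (SE).

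Among the central genes, HOXB7, whose promoter marks the ureteric bud, has 3 probe sets that did not move alike. Probe set 204778_x_at read 272 and 312 at 60dG, 382, 476 and 447 at 90dG, 364, 422 and 386 at 125dG, and 411, 338 and 296 at 160dG. All later arrays but 160dG replicate 3 were above both 60dG arrays. The step from 60dG to 90dG was 0.55 ± 0.20 (SE; limma adjusted p = 0.0994), and with array weights it was 0.62 and passed the test (adjusted p = 0.0301), in a fit that called 16.8% of all probe sets. Probe set 204779_s_at read 699.9 and 602 at 60dG, 574, 633 and 871 at 90dG, 593, 668 and 556 at 125dG, and 546, 565 and 456 at 160dG. Its step from 60dG to 90dG was 0.07 ± 0.21 (SE), and its 160dG arrays were all below its 60dG arrays. Probe set 216973_s_at read 835 and 644 at 60dG, 734, 975 and 959 at 90dG, 627, 827 and 558 at 125dG, and 666, 659 and 634 at 160dG, and its step from 60dG to 90dG was 0.26 ± 0.21 (SE). From 60dG to 160dG the estimates were 0.23, -0.31 and -0.16 in the same order.

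HOXB6, the neighbour of HOXB7 and a gene of trunk mesoderm and blood progenitors, gave the smallest adjusted p of the fetal comparisons, for any stage difference in probe set 205366_s_at (0.0767, limma). That probe set read 1029 and 808 at 60dG, 1006, 986 and 1021 at 90dG, 771, 748 and 646 at 125dG, and 615, 713 and 764 at 160dG. All arrays from 125dG on were below every earlier array. Its step from 90dG to 125dG was -0.47 ± 0.16 (SE; adjusted p = 0.0888) and its slope -0.053 per 10 days (adjusted p = 0.0970). The second probe set, 205365_at, read 284 and 247 at 60dG, 254, 182 and 177 at 90dG, 266, 259 and 303 at 125dG, and 196, 187 and 208 at 160dG. From 90dG to 125dG it went the other way, with a difference of 0.42 ± 0.20 (SE; adjusted p = 0.210), so HOXB6 has no settled direction for that step. From 60dG to 160dG both had like estimates, -0.40 and -0.38.

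HOXB5, known for gut, lung and vessel development, has 2 probe sets. Probe set 205600_x_at read 1230.3 and 1076 at 60dG, 1190, 1287 and 878 at 90dG, 1100.4, 988 and 1010.4 at 125dG, and 838, 939 and 893 at 160dG. The 160dG arrays were below all 60dG and 125dG arrays and overlapped 90dG replicate 3, with a difference from 60dG of -0.37 ± 0.19 (SE; limma adjusted p = 0.262). Probe set 205601_s_at read 439.7 and 432 at 60dG, 700.4, 498 and 472 at 90dG, 389, 453 and 470 at 125dG, and 505, 398 and 241 at 160dG. Its 160dG arrays lay on both sides of the 60dG arrays, with a difference of -0.24 ± 0.27 (SE).

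HOXC6, a gene of thoracic levels, read 1949 and 2076 at 60dG, 1913, 2453 and 2849 at 90dG, 2086, 1832 and 1848 at 125dG, and 1639, 2111 and 1841 at 160dG. Its stages overlapped, and the difference from 60dG to 160dG was -0.12 ± 0.18 (SE). HOXC4, a gene of cervical levels and lymphoid cells, read 543 and 448 at 60dG, 656, 801 and 716 at 90dG, 794, 754 and 745 at 125dG, and 722, 842 and 303 at 160dG. Every 90dG and 125dG array was above both 60dG arrays, and 160dG replicate 3 was the lowest fetal array. The difference from 60dG to 160dG was 0.20 ± 0.32 (SE), and 0.64 without that array.

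HOXD4, a gene of the hindbrain boundary and the cervical spine, read 742 and 643 at 60dG, 888, 771 and 716 at 90dG, 526, 578 and 755 at 125dG, and 565, 751 and 656 at 160dG. HOXD1, the anterior gene above the filter and known for sensory neurons, read 568 and 379 at 60dG, 498, 537 and 578 at 90dG, 401, 535 and 541 at 125dG, and 451, 528 and 433 at 160dG. Stages overlapped for both genes, and the differences from 60dG to 160dG were -0.08 ± 0.21 (SE) for HOXD4 and 0.02 ± 0.22 (SE) for HOXD1.

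Of the dim genes, HOXA2, the patterning gene of the second pharyngeal arch, read 18.0 and 19.1 at 60dG, 67.4, 88.9 and 61.2 at 90dG, 10.4, 15.4 and 3.9 at 125dG, and 13.3, 16.8 and 19.7 at 160dG. All 3 of the 90dG arrays were above every other fetal array, yet all lay below the median signal of their array. Without the filter HOXA2 was the only HOX probe set called, for any stage difference (limma adjusted p = 0.0200) and for 125dG against 90dG (-1.79 ± 0.35 SE, adjusted p = 0.0223). At these signals the size rests on the pseudocount, being -2.90 with 1 and -0.88 with 64. That fit called 1292 and 377 of all 16143 probe sets in these comparisons (2.34% in the second). The second call was lost with the GAPDH ratio as a covariate (adjusted p = 0.0855), without 90dG replicate 2 (0.0604) or 90dG replicate 3 (0.0596), and without 125dG replicate 1 (0.0701), 2 (0.0528) or 3 (0.0857). HOXC8, a thoracic gene, lay between 107 and 235 and HOXB3, a hindbrain gene, between 23.4 and 182 on the fetal arrays.

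Adult signals of central and posterior HOX genes were often below those of late fetal kidney. The anterior genes were not lower, and neither were the central HOXD4 and the posterior HOXC10 and HOXD11. Because all adult samples were on another array type, array type and age cannot be told apart, and no test was made. Over the 20 probe sets the median adult minus 160dG difference was -0.52 on the log2 scale against 0.11 over all 16143, and -0.67 against -0.04 after each array's median was subtracted. The difference was negative for 14 of 20 HOX probe sets (70%) and for 44.5% of all. The 3 adult arrays alone gave medians of -0.53, -0.36 and -0.42.

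All adult arrays lay below all 160dG arrays for 9 of 20 HOX probe sets of 7 genes, against 21.0% of all probe sets, and above them for 0, against 28.1%. Among the 13 HOX probe sets whose mean level over 160dG and adult lay above the median of that mean, the count was 7, against 28.3%. All adult arrays were below every fetal array for 8 of 20, against 11.6%. The median difference was -0.90 for the 6 posterior probe sets, -0.56 for the 11 central ones and 0.45 for the 3 anterior ones (paralogues 1 to 3). Of the anterior ones HOXA2 and HOXB3 lay below the filter, and the value of 0.45 is that of the dim HOXA2.

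**Figure D3:**
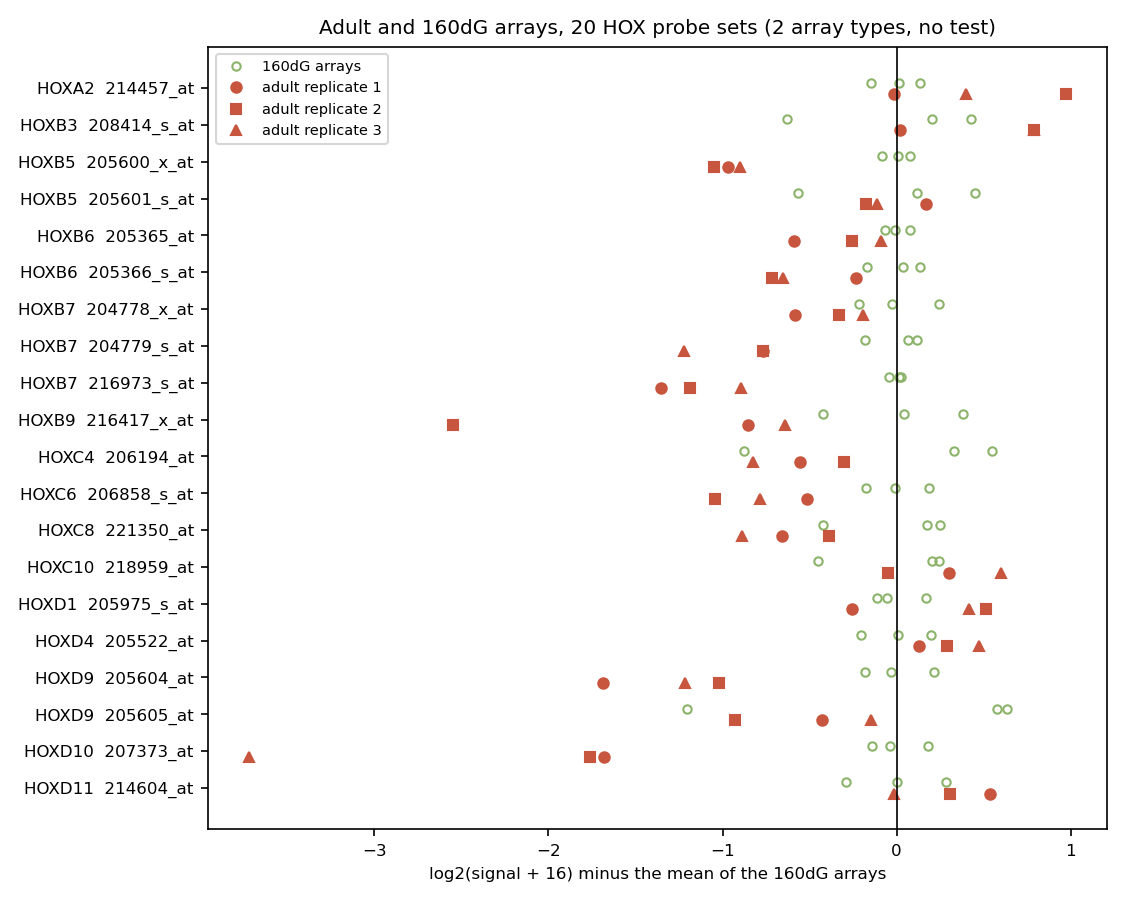
Each 160dG array (open circles) and each adult array (filled, by replicate) for the 20 HOX probe sets, as log2(signal + 16) minus the mean of the 160dG arrays (horizontal axis). The 2 groups are on different array types, so no test applies. The mean adult difference runs from -2.39 for HOXD10 to 0.53 for HOXB3.

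HOXD10 had the lowest adult value relative to 160dG. It read 140.3, 132 and 22.1 in adult against 438, 552 and 473 at 160dG, a difference of -2.39. Adult replicate 3, the array with muscle genes, was the lowest, and without it the difference was -1.72, a mean 160dG signal 3.58 times the adult mean. HOXB9 read 108, 22.1 and 127 in adult against 275, 150.1 and 214 at 160dG, a difference of -1.35. Here adult replicate 2 was the lowest, and without it the difference was -0.75. HOXD9 probe set 205604_at read 243, 395 and 343 in adult, below every fetal array, with a difference from 160dG of -1.31. The dim HOXD9 probe set 205605_at read 35.5, 20.3 and 46.6 in adult, within the range of its 160dG arrays.

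HOXB7 probe set 216973_s_at read 246, 278 and 343 in adult and differed from 160dG by -1.14, probe set 204779_s_at read 299, 299 and 214 and differed by -0.92, and probe set 204778_x_at read 225, 271 and 299.6 and differed by -0.37. The first pair had no overlap with any fetal array, whereas the last overlapped both 160dG and 60dG. HOXB5 differed by probe set as well. Probe set 205600_x_at read 446, 421 and 468 in adult, a difference of -0.97 with no overlap with fetal arrays. Probe set 205601_s_at read 413, 322 and 337, a difference of -0.04 within the 160dG range.

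HOXC6 read 1294, 889.5 and 1069 in adult, below every fetal array, a difference of -0.78. HOXB6 read 588, 417 and 435 for probe set 205366_s_at (-0.53) and 125, 162 and 184 for probe set 205365_at (-0.31), both below the 160dG arrays. HOXC4 read 384, 460.2 and 315 (-0.56) and HOXC8 read 118, 145 and 97.8 (-0.65), and both overlapped 160dG.

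The other HOX genes were not lower in adult. HOXD11 read 229.9, 194 and 152 against 154, 191 and 123 at 160dG, a difference of 0.28, and HOXC10 read 736, 574 and 909.6 against 707, 687 and 431, also 0.28. HOXD4 read 714, 799.8 and 913 (0.30) and HOXD1 read 390.4, 677 and 632 (0.23). Adult and 160dG arrays overlapped for all 4. The dim HOXA2 (16.1, 47.8 and 26.9 in adult) and HOXB3 (114, 205 and 206) differed by 0.45 and 0.53, and overlapped too. The posterior genes HOXD10, HOXD11 and HOXC10 thus did not read alike in adult.

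HOX proteins bind DNA with cofactors of the PBX, MEIS and PKNOX families. Of 10 listed genes of these families 7 were on the array, 1 of them the pseudogene MEIS3P1, which was not tested. Of the 7, 5 were tested, and 1 fell from 60dG to 160dG, against 9.83% of all probe sets called in either direction. This was PBX3, with 778 and 544 at 60dG and 399, 290.1 and 383 at 160dG, a difference of -0.85 ± 0.22 (SE; limma adjusted p = 0.0275). The call was lost without 60dG replicate 1 (-0.60, adjusted p = 0.302) and without 160dG replicate 2 (-0.71, adjusted p = 0.0850). MEIS1 had a difference of -0.52 ± 0.17 (SE; adjusted p = 0.0669) and MEIS2 one of -0.59 ± 0.18 (SE; adjusted p = 0.0583). In adult MEIS1 read 223, 369 and 174 against 954, 1036 and 1172 at 160dG, and MEIS2 read 415, 466 and 367 against 1424, 2069 and 2176. These 2 of the 7 listed genes on the array had every adult array below every 160dG array, with differences of -2.04 and -2.12. For 1 of the 7 every adult array was above. Over all probe sets the shares were 21.0% below and 28.1% above.

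A list of 13 kidney genes held genes that act with HOX11 paralogues and others of the developing kidney, RET and FOXD1 among them. Of the 13, 9 were on the array and 7 were tested, and 3 fell from 60dG to 160dG, against 9.83% of all probe sets called. EYA1, the coactivator of the HOX11 complex, read 468 and 490.1 at 60dG and 137, 122 and 171 at 160dG, a difference of -1.65 ± 0.24 (SE; limma adjusted p = 0.000671). FOXD1, the marker of stromal progenitors, read 873 and 825 at 60dG and 275, 318 and 457 at 160dG, a difference of -1.27 ± 0.24 (SE; adjusted p = 0.00369). SALL1, a nephron progenitor regulator, had a difference of -0.67 ± 0.19 (SE; adjusted p = 0.0440) that lost its call under 13 of 22 alternatives, with adjusted p up to 0.245. PAX2, the other partner of the complex, had a difference of -0.66 ± 0.20 (SE; adjusted p = 0.0574). In adult 5 of the 9 lay below every 160dG array, against 21.0% of all probe sets. Among them was FOXD1 with 16.8, 20.2 and 19.3, a difference of -3.37. At such a dim adult signal the size depends on the pseudocount, being -4.12 with 1 and -2.30 with 64.

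**Figure D4:**
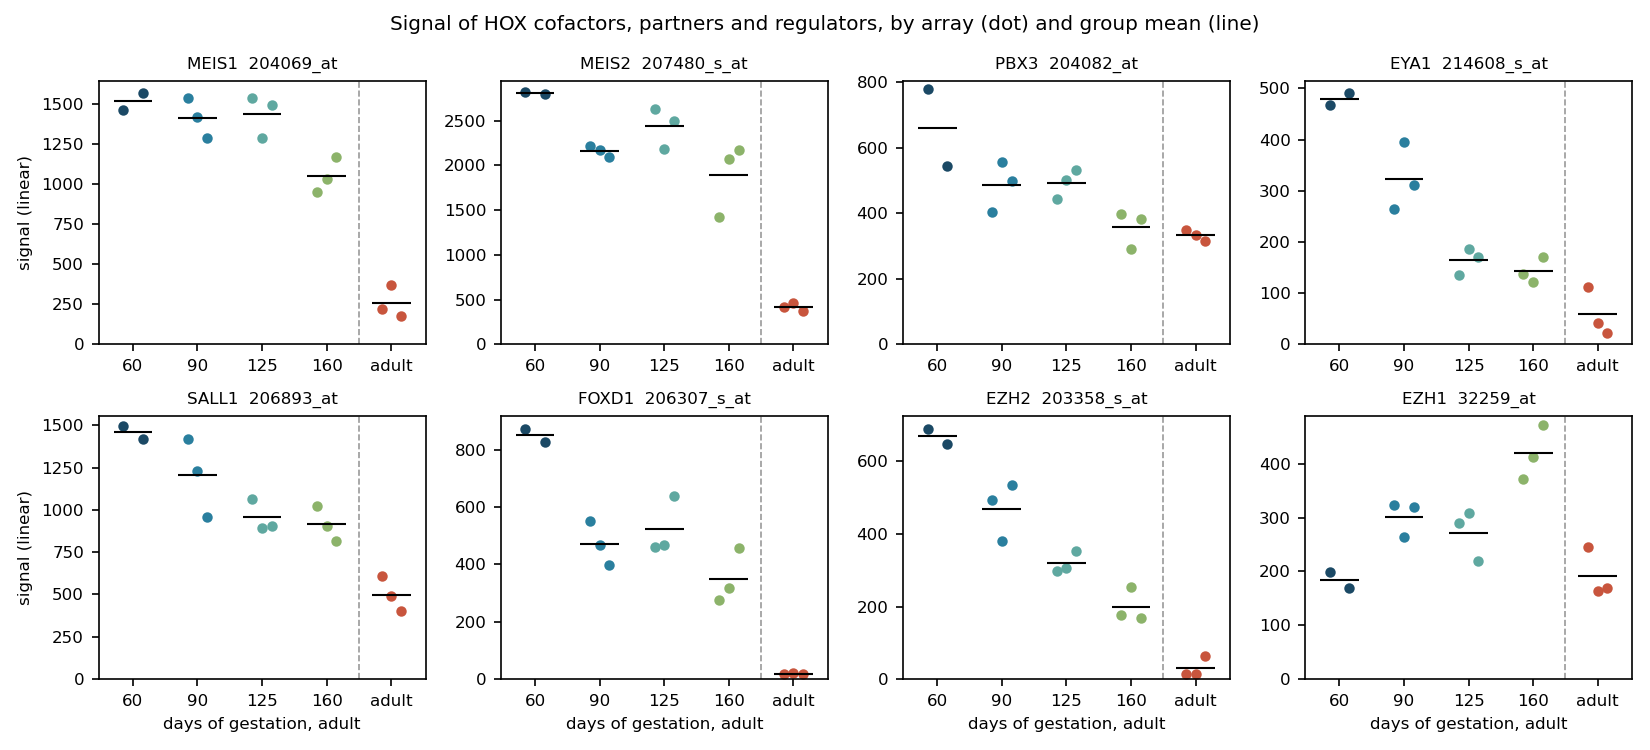
Deposited linear signal (vertical axis, starting at 0) of 8 HOX cofactors, kidney partners and cluster regulators by fetal stage in days of gestation and in adult (horizontal axis). Each dot is 1 array, each short line a group mean, and the dashed line parts the 2 array types. EYA1, FOXD1 and EZH2 step down from 60dG to 160dG, and MEIS1 and MEIS2 read under 500 in adult only.

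HOX clusters are held silent by Polycomb proteins and kept active by Trithorax proteins. Of 26 listed regulators 16 were on the array and 14 were tested, and 1 fell and 1 rose from 60dG to 160dG, a share near the 9.83% of all probe sets called. EZH2, the Polycomb methyltransferase of dividing cells, read 690.4 and 648 at 60dG and 178, 254 and 168 at 160dG, a difference of -1.69 ± 0.22 (SE; limma adjusted p = 0.000251). EZH1, its counterpart in resting cells, had a difference of 1.12 ± 0.22 (SE; adjusted p = 0.00454), which lost its call without 60dG replicate 2 (1.01, adjusted p = 0.0523). Its other probe sets differed by 0.82 and -0.38, so its direction rests on the probe set. The regulators CBX7 and PHC1 lay below the filter and were not tested. CBX7 read 37.9 and 47.5 at 60dG and 247, 206 and 189 at 160dG, without overlap. PHC1 read 37.3 and 228 at 60dG and 29, 258 and 207 at 160dG, and overlapped. The median difference was -0.52 over the tested cofactors, -0.66 over the tested kidney genes listed with HOX11 and -0.17 over the regulators. It was -0.28 for the HOX probe sets and -0.02 for all. In adult 6 of the 16 regulators lay below every 160dG array and 0 above, against 21.0% and 28.1% of all probe sets.

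Markers of several cell types differed between the same samples. All 8 tested cell cycle genes fell from 60dG to 160dG, where 9.83% of all probe sets were called. The 10 on the array summed to 6509 to 6900 at 60dG, 1155 to 1953 at 160dG and 1196 to 1526 in adult, within the 160dG range. In adult 3 of the 10 lay below every 160dG array and 2 above, against 21.0% and 28.1% of all probe sets. The 7 nephron progenitor markers on the array summed to 4107 to 4266 at 60dG, 2458 to 2612 at 160dG and 1065 to 1242 in adult. Of the 4 tested, EYA1 and SALL1 fell from 60dG to 160dG, against 9.83% of all probe sets called. WT1 (-0.36, limma adjusted p = 0.571) and ITGA8 (-0.19, adjusted p = 0.680) were not called. In adult 4 of the 7 lay below every 160dG array and 0 above, against 21.0% and 28.1% of all probe sets. SIX2 and MEOX1 had higher means in adult than at 160dG. The 11 cartilage and bone markers summed to 2139 to 2381 at 60dG, 1020 to 1159 at 160dG and 1582 to 1766 in adult. Of the 3 tested 2 fell from 60dG to 160dG, COL2A1 by 3.48 and COL11A1 by 1.30 on the log2 scale. COL2A1 made up most of the lower sum, with means of 1171 at 60dG and 97.9 at 160dG. COL11A2, also tested, differed by 0.11 (limma adjusted p = 0.842). Among those not tested, COL9A2, ACAN, MATN1, MATN3 and CNMD had higher means at 160dG than at 60dG, and COL9A1, HAPLN1 and IBSP lower ones. The 4 neural markers summed to 2314 to 2782 at 60dG, 1222 to 1491 at 160dG and 622 to 749 in adult. The 1 tested, TUBB3, fell by 1.00 from 60dG to 160dG. It made up most of the sum, with means of 2268 at 60dG, 1116 at 160dG and 418 in adult. In the same order the untested NEFL had means of 97.55, 103 and 135, NEFM 120, 119.5 and 30.8, and STMN2 61.9, 19.2 and 113.

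The 10 renal stroma markers summed to 29432 to 32038 at 60dG, 24922 to 28314 at 160dG and 7039 to 9383 in adult. COL1A1 was the largest part of the fetal sums, with means of 11090.5 at 60dG, 7936 at 160dG and 516 in adult. From 60dG to 160dG 2 of the 9 tested fell, COL1A1 and FOXD1, and 2 rose, PDGFRA and TCF21. In adult 7 of the 10 had every array below every 160dG array, against 21.0% of all probe sets. DCN, the largest part of the adult sum, had means of 3740 at 160dG and 4092 in adult, and the dim LUM was also higher in adult. The 12 ureteric bud and collecting duct markers summed to 7612 to 8209 at 60dG, 7056 to 8370 at 160dG and 6289 to 8108 in adult, ranges that overlap. Single markers moved in opposite directions within these sums. From 60dG to 160dG 1 of the 9 tested fell, GATA3 by 0.65, and 1 rose, SCNN1A by 1.83 on the log2 scale. Over all probe sets 9.83% were called. In adult 3 of the 12 lay below every 160dG array and 1 above, against 21.0% and 28.1% of all probe sets. The part of these cell types in the HOX values was not tested.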

How the data were processed

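Total RNA of whole baboon kidney was measured on human Affymetrix arrays. The authors deposited 1 linear intensity for each probe set. The submitters' processing notes name GCOS as the software. Its version, algorithm and scaling are not given in the sources used, and how baboon sequence affects human probes was not analysed here. The 2% trimmed means differed by at most 1.02 times among fetal arrays and 1.07 times among all 14, so no rescaling was applied. Groups came from the labels, which call the fetal replicates biological. Whether the adult samples are called so is not stated. The p-values set fetal stage differences against the spread between the fetal arrays, and none was computed for adult samples.

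Of 16143 probe sets other than the 43 controls, 14068 have 1 gene symbol, 735 several and 1340 none in the platform annotation, which can be old, and only those with 1 symbol were named. Values were taken as log2(signal + 16), a pseudocount of 16. The filter kept probe sets with a mean over the 11 fetal arrays above the median (7.60 on the log2 scale). All 8071 were fitted together with limma 3.58.1 in R 4.3.3 (1 mean per stage, or a slope per 10 days, and eBayes with an intensity trend), with Benjamini-Hochberg adjusted p under 0.05. Each gene of the other lists was represented by its probe set with the highest fetal mean. Adult and fetal arrays were compared as values only. The model was tested on simulated data with known changes. Every HOX probe set is described, with values by array for those above the filter. The members and the lists of cofactors, partners, regulators and cell-type markers were chosen with earlier results of these data known. HOXC8, HOXB3 and the second HOXD9 probe set are given mostly by range, and HOXA2 by array because it was called without the filter, which was chosen after its values were seen. Alternatives were other pseudocounts, filters and normalization, array weights, eBayes without a trend, 1 probe set per gene, a replicate block, the GAPDH ratio as a covariate, the fit without 90dG, and leaving out each array. Sequences of the genes and probes were not used here. Figures were drawn with matplotlib 3.10.9.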

Additional observations from a re-analysis of the deposited data

How the results depend on the processing

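The count of HOX probe sets called was 0 in all 6 fetal comparisons with limma, and it stayed 0 in 126 of 130 alternative counts. It was 1 without the filter for any stage difference and for 125dG against 90dG (HOXA2), and 1 with array weights for any stage difference (HOXD10) and for 90dG against 60dG (HOXB7 probe set 204778_x_at, 0.62 on the log2 scale). With a replicate block the count was 0 in every comparison. The replicate numbers were not taken as pairs, since over 15 pairs of same-numbered arrays the correlation of deviations ran from -0.10 to 0.20, with 3 pairs over 0.1. Over all probe sets the block gave 1222 calls for any stage difference in place of 1430. The median adult minus 160dG difference of -0.52 moved to -0.41 with a pseudocount of 64 and to -0.67 with array medians subtracted, and ran from -0.55 to -0.36 as each array was left out. It kept its sign under all 9 alternatives. For 160dG against 60dG some HOX estimates changed sign among the alternative fits. These were HOXB5 probe set 205601_s_at (-0.47 to 0.04), HOXB7 probe set 216973_s_at (-0.35 to 0.02) and HOXB9 (-0.37 to 0.40). The others were HOXC4 (-0.07 to 0.64), HOXD1 (-0.27 to 0.30) and HOXD4 (-0.18 to 0.02). The alternatives for HOXA2 and for the genes of the lists were chosen after seeing the data. The small number of arrays limits the precision, and the 60dG group has only 2. HOXA2, HOXB3, HOXC8 and the second HOXD9 probe set lie where signal is dim, so their folds depend on the pseudocount. HOXD10 and HOXB9 each have an adult array at 22.1, so the size of their adult differences depends on it too. For HOXB9, HOXD11 and HOXB6 probe set 205365_at the mean level over 160dG and adult was not above the median of that mean.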
